A study of Mus musculus with 6 samples.

Results

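The inner retina holds 3 classes of neuron whose marker genes are described here. Amacrine cells are inhibitory interneurons that release GABA or glycine, often with a peptide or a second transmitter. Ganglion cells send the retina's output through axons in the optic nerve, and horizontal cells feed inhibition back to the photoreceptor terminals. The list was taken gene by gene from the authors' table by symbol, with 15 amacrine, 14 ganglion and 5 horizontal cell markers, 34 of 49997 genes in all. All 34 were found and all 34 passed the filter for low values, so each could be tested among 20277 tested genes.

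RNA came from single retinas of male mice, 1 retina per library. The 3 Samd7 KO retinas carried the genotype label Samd7 knockout (-10A) and were taken at postnatal day 31. The 3 wild-type retinas were labelled c57Bl6/j wt and were taken at postnatal day 36, so that genotype and age cannot be told apart. Samd7 is a photoreceptor protein of the Polycomb silencing system and is not known as a gene of these inner neurons. Its own level was 57837, 45755 and 44932 normalized reads in the libraries labelled Samd7 KO, against 6349, 8141 and 8122 in wild type, so the count over the whole gene was higher under the KO label. No source used here gives the strain of the KO mice or the effect of the allele on the protein.

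A normalized read is a gene's read count divided by the size factor of its library. Total reads per library were 44231112 to 53068288 in Samd7 KO and 47727617 to 62813549 in wild type. Rod markers, the most abundant of a mouse retina, summed to 2806040 to 3072150 normalized reads in Samd7 KO and 4395820 to 4788600 in wild type, and 5 of 7 were lower. Library wild type 3 carried lens RNA, with 3246 normalized reads of the lens crystallin gene Cryaa against 4.81 to 21.4 in the other 5 libraries.

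Markers are shared more than their names say. Tfap2a and Tfap2b, the AP-2 transcription factors of amacrine cells, also serve horizontal cells, Prox1 is found in AII amacrine and bipolar cells as well as in horizontal cells, and calretinin (Calb2) and the calbindin gene Calb1 mark several inner neurons. In whole retina, fewer cells of a type and less RNA per cell cannot be told apart.

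The promoters of 3 peptide genes are shown because Sst and Cck had the lowest log2 fold changes among the amacrine cell markers, Sst with a value that rested on wild type 2, and Vip as a further peptide gene, whose groups overlapped. The cAMP response element, TGACGTCA, and its core, TGACG or on the other strand CGTCA, are bound by CREB-family factors, and the capitals mark them. The windows run from 250 bases before to 50 bases after the RefSeq start site in GRCm38.p6, for Sst at chr16:23890795-23891094 on the minus strand, for Vip at chr10:5638968-5639267 on the plus strand and for Cck at chr9:121495645-121495944 on the minus strand.
Sst: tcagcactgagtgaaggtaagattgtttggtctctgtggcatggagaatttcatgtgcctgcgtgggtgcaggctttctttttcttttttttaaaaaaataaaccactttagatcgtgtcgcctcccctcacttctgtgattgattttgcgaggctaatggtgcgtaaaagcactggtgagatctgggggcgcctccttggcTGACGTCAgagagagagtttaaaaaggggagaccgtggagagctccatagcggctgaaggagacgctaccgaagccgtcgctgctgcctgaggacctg
Vip: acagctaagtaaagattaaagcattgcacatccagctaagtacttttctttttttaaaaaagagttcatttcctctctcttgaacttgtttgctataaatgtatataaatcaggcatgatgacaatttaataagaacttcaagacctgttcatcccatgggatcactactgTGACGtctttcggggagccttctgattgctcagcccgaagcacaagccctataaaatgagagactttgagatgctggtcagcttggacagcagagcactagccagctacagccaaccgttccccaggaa
Cck: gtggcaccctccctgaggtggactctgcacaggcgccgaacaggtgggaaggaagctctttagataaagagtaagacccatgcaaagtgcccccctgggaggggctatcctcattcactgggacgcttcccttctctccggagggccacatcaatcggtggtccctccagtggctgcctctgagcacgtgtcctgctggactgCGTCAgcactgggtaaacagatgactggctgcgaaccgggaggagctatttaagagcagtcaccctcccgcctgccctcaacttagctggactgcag
Sst held the full element, whose first base lay 48 bases before the start site. Vip and Cck held a core, beginning 79 and 47 bases before it. Of 32851 promoters searched on both strands, 1.79% held the full element and 20.8% held a core, which every full element contains. Promoters were given for 23 of the 34 members, as 29 windows, of which 2 held the full element (Isl2 and Sst) and 14 a core. A match describes the letters in the window and was not tested as a binding site.

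The cholinergic genes Chat, the enzyme that makes acetylcholine, and Slc18a3, its vesicular transporter, mark starburst amacrine cells and share a locus. Slc18a3 (chromosome 14, 32462438 to 32464850, minus strand, GENCODE M21 on GRCm38) lies within the span of Chat (32408203 to 32465989) on the same strand, with its RefSeq start site 1059 bases downstream. Their promoter windows are shown for this arrangement, with cores in capitals, Chat at chr14:32465860-32466159 and Slc18a3 at chr14:32464801-32465100.
Chat: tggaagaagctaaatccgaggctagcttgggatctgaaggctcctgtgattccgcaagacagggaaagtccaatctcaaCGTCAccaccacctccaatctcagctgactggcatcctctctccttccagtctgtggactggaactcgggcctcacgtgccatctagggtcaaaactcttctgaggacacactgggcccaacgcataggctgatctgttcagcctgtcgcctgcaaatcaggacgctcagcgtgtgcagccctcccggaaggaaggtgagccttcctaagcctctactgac
Slc18a3: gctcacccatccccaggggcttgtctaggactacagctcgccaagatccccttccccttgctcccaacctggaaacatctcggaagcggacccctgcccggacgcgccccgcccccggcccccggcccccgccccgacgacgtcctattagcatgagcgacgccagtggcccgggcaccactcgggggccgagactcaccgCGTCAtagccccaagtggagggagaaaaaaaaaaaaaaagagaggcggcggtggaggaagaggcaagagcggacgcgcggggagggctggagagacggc
Where the annotated exons of both genes cover the same stretch, the split of reads between them is uncertain.

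Of the 34 markers, 1 was called between the groups, the neurofilament gene Nefh, which was higher in Samd7 KO retinas. With limma-trend and Benjamini-Hochberg adjustment over all tested genes, a gene is called at an adjusted p under 0.05. This called 12.0% of all tested genes, 6.79% higher and 5.21% lower. With scaling to total reads the split of called genes was 2006 higher and 812 lower, against 1376 higher and 1056 lower here. Of the markers, 0 of 15 amacrine, 1 of 14 ganglion and 0 of 5 horizontal cell genes were called. The authors' deposited table holds DESeq2 tests at log2 fold change thresholds of 0 and of 1. At the threshold of 0, the one used here, it likewise listed 1 of the 34 at an adjusted p under 0.05. Of its genes with an adjusted p at that threshold, 14.3% reached that level. At an unadjusted p under 0.05 there were 6 of 34 markers, against 5379 of the 20277 genes tested.

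**Figure D1:**
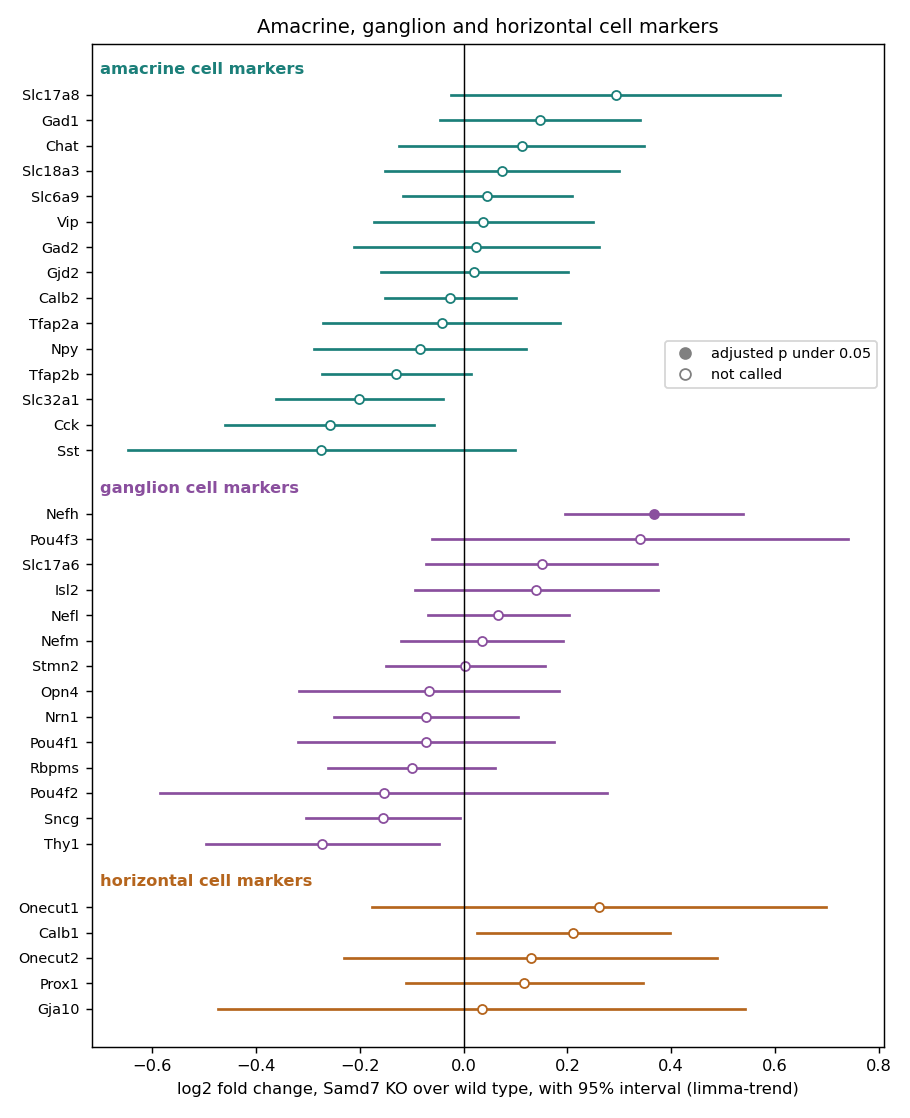
Log2 fold change of each marker, Samd7 KO over wild type, with its 95% interval from limma-trend (n = 3 libraries per group), sorted within each cell class. The filled point is Nefh, the called marker, and the intervals of Slc32a1, Cck, Sncg, Thy1 and Calb1 also leave out 0 before adjustment.

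The median log2 fold change of the 34 markers was 0.03, with 0.02 for amacrine, -0.03 for ganglion and 0.13 for horizontal cell markers, against 0.00 over all tested genes. The markers ranged from -0.27 for Sst to 0.37 for Nefh. The median size of the log2 fold change, sign aside, was 0.11 over the markers and 0.19 over all tested genes. The 95% intervals of 29 of the 34 stayed inside a 1.5-fold change in either direction, and those of all 34 stayed inside a 2-fold change. For 56.1% of all tested genes the interval stayed inside 1.5-fold. The 5 wider intervals belonged to Slc17a8, Sst, Pou4f2, Pou4f3 and Onecut1, whose wild-type means were 70.8 to 322 normalized reads. The markers had higher levels than most tested genes, with medians of 1529 normalized reads in Samd7 KO and 1557 in wild type. Over all tested genes the medians were 531 in Samd7 KO and 506 in wild type. How far level accounts for the smaller changes and narrower intervals was not tested.

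Groups did not overlap for 3 markers with Samd7 KO above (Nefh, Pou4f3 and Calb1) and 7 with Samd7 KO below (Tfap2b, Slc32a1, Cck, Rbpms, Sncg, Thy1 and Nrn1). Over all tested genes 31.1% had groups that did not overlap, 15.9% with Samd7 KO above and 15.2% below. The share of the markers on these values was therefore near the background. With the length correction described further on, the groups of Calb1, Sncg, Thy1 and Nrn1 overlapped, while those of Isl2 no longer did. The share over all tested genes was not computed with that correction.

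Summed over their markers, the classes were level for amacrine cells, at 83688, 87514 and 88830 normalized reads in Samd7 KO and 90627, 82863 and 86831 in wild type. The ganglion cell sums were 76293, 80031 and 78495 in Samd7 KO and 78114, 73549 and 75923 in wild type, and also overlapped. Calb2 and Nefl were the largest terms of these sums. The horizontal cell sums were 7729, 9837 and 8374 in Samd7 KO and 7576, 7848 and 7463 in wild type, with the highest of the 6 in Samd7 KO 2.

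The genes of inhibitory transmission in amacrine cells had 0 calls. Gad1, which makes GABA, had 10033, 12516 and 11382 normalized reads in Samd7 KO and 10982, 9495 and 10095 in wild type (log2 fold change 0.15, SE 0.09, limma adjusted p = 0.320). The groups overlapped, and the log2 fold change of Gad1 was 0.0711 without Samd7 KO 2 and 0.0587 with the length correction described further on. The second GABA enzyme gene, Gad2, had 1307, 1623 and 1330 normalized reads in Samd7 KO and 1434, 1267 and 1474 in wild type. Both enzymes were highest in Samd7 KO 2 and lowest in wild type 2. Slc6a9, the glycine transporter GLYT1 of glycinergic amacrine cells, had 17277, 18714 and 19575 normalized reads in Samd7 KO and 19328, 16560 and 17975 in wild type.

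Slc32a1, the vesicular transporter that loads both GABA and glycine (chromosome 2, 158610767 to 158615748), did not overlap between groups. It had 4123, 3808 and 4238 normalized reads in Samd7 KO and 4790, 4627 and 4565 in wild type. The log2 fold change was -0.20 (SE 0.07, 95% interval -0.36 to -0.04), which did not pass after adjustment (limma adjusted p = 0.103). The reads of Slc6a9 over those of Slc32a1, a ratio chosen after its values were seen, were 4.19, 4.91 and 4.62 in Samd7 KO and 4.03, 3.58 and 3.94 in wild type.

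The other transmitters of amacrine cells also overlapped between groups. Chat had 1233, 1456 and 1262 normalized reads in Samd7 KO and 1376, 1118 and 1166 in wild type. Slc18a3 had 1266, 1212 and 1441 in Samd7 KO and 1371, 1159 and 1194 in wild type. The library with the most Chat reads, Samd7 KO 2, stood below the other Samd7 KO libraries for Slc18a3, so these neighbours did not rank the libraries alike. With the length correction, Samd7 KO 2 lay between the other Samd7 KO libraries for Slc18a3 and was still highest for Chat. Slc17a8, the vesicular glutamate transporter VGLUT3, had 261, 254 and 215 normalized reads in Samd7 KO and 194, 220 and 181 in wild type (95% interval of the log2 fold change -0.02 to 0.61, limma adjusted p = 0.223).

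Among the peptides, Cck, cholecystokinin (chromosome 9, 121489824 to 121495694), had 1054, 951 and 932 normalized reads in Samd7 KO and 1184, 1142 and 1183 in wild type. All 3 Samd7 KO libraries lay below wild type, 1.19-fold on average, and the difference did not pass (log2 fold change -0.26, SE 0.09, limma adjusted p = 0.0959, with an interval of -0.46 to -0.06). Sst, somatostatin, had 297, 265 and 228 in Samd7 KO and 287, 407 and 272 in wild type, with wild type 2 apart from the rest. Its log2 fold change of -0.27 (limma adjusted p = 0.339) moved to -0.09 without wild type 2. Vip, vasoactive intestinal peptide, had 908, 862 and 804 in Samd7 KO and 814, 820 and 872 in wild type, and Npy, neuropeptide Y, had 1153, 986 and 1060 in Samd7 KO and 1115, 1131 and 1139 in wild type. Both overlapped.

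Of the remaining amacrine markers, Tfap2b had 5227, 5268 and 5291 normalized reads in Samd7 KO and 5665, 5778 and 5829 in wild type, a separation of 1.09-fold with little spread in either group (limma adjusted p = 0.233). Its relative Tfap2a overlapped at 626 to 685 in Samd7 KO and 614 to 699 in wild type. Calb2, a calcium buffer, had 35447 to 37053 in Samd7 KO and 35320 to 38193 in wild type. Gjd2, connexin 36, the gap junction protein of AII amacrine cells that photoreceptors and bipolar cells also use, had 3015 to 3512 in Samd7 KO and 3120 to 3366 in wild type.

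Per kilobase of merged exons, the amacrine genes kept nearly the same order in both groups. Calb2 led at 20721 normalized reads per kilobase in Samd7 KO and 21100.5 in wild type. It was followed by Slc6a9 at 3603 in Samd7 KO and 3492 in wild type, and by Npy at 1884 in Samd7 KO and 1993 in wild type. Slc17a8 came last at 51.5 in Samd7 KO and 42.0 in wild type. Gad1 and Slc32a1, at 1481 and 1450 normalized reads per kilobase in Samd7 KO and 1334 and 1666 in wild type, were the neighbours that swapped places.

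Ganglion cell axons are built on neurofilaments of a light, a medium and a heavy chain. The heavy chain gene Nefh (chromosome 11, 4938754 to 4948064) had 7205, 7446 and 7334 normalized reads in Samd7 KO and 6173, 5155 and 5767 in wild type. All Samd7 KO libraries lay above all wild-type libraries, with 7328 ± 121 against 5698 ± 513 (SD, n = 3 each), and Nefh rose 1.29-fold (log2 fold change 0.37, SE 0.08, limma adjusted p = 0.00960, with a 95% interval of 0.20 to 0.54). Without wild type 2, the lowest library, the log2 fold change was 0.30 and the call ended (limma adjusted p = 0.0541). Without wild type 3, the library with lens RNA, it held (limma adjusted p = 0.0474). Over the alternatives the adjusted p of Nefh lay between 0.000660 and 0.0541, and with the length correction it was 0.00500. Nefh overlaps no other annotated gene. The authors' deposited table listed a log2 fold change of 0.36 with an adjusted p of 0.00139, from the DESeq2 test at a threshold of 0.

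The other chains did not pass. Nefm, the medium chain, had 3611, 3555 and 3441 normalized reads in Samd7 KO and 3368, 3547 and 3438 in wild type (log2 fold change 0.04, 95% interval from -0.12 up to 0.19, limma adjusted p = 0.803). Nefl, the light chain, had 42109, 46593 and 44700 in Samd7 KO and 44437, 40677 and 42219 in wild type (log2 fold change 0.07, 95% interval from -0.07 up to 0.20, limma adjusted p = 0.540). The annotated spans of Nefl and Nefm overlap on opposite strands, and no source used here gives the strand setting of the counting. The reads of Nefh over those of Nefm were 1.995, 2.09 and 2.13 in Samd7 KO and 1.83, 1.45 and 1.68 in wild type, a ratio that was not tested.

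**Figure D2:**
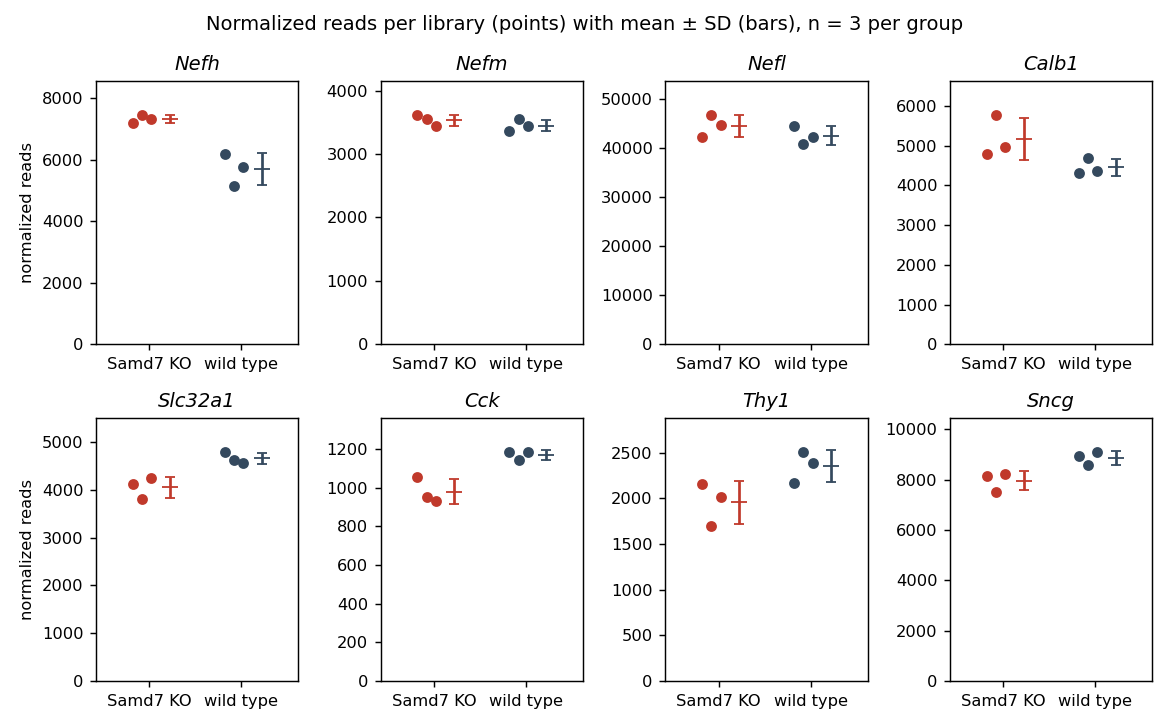
Normalized reads (y axis, from 0) of 8 markers in each library (points, with mean ± SD as bars, n = 3 per group), Samd7 KO left and wild type right in each panel. Nefh stands at 7205 to 7446 in Samd7 KO and 5155 to 6173 in wild type, while the groups overlap for Nefm and Nefl.

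Of 5 further ganglion cell markers, Thy1, Sncg, Rbpms, Nrn1 and Stmn2, 0 were called. Thy1, a surface glycoprotein (chromosome 9, 44043384 to 44048579), had 2158, 1698 and 2009 normalized reads in Samd7 KO and 2166, 2507 and 2392 in wild type. The highest Samd7 KO library nearly met the lowest wild-type library, and the log2 fold change of -0.27 (SE 0.10, 95% interval -0.50 to -0.05) did not pass (limma adjusted p = 0.114). Without Samd7 KO 1 it was -0.35 and passed (limma adjusted p = 0.0416), and without Samd7 KO 2, the lowest library, it was -0.17 (limma adjusted p = 0.251). Over the omission of each library in turn its adjusted p reached 0.325. Sncg, gamma-synuclein, had 8165, 7521 and 8218 in Samd7 KO and 8928, 8578 and 9101 in wild type (log2 fold change -0.16, SE 0.07, limma adjusted p = 0.168). Rbpms, an RNA-binding protein found in nearly all ganglion cells, had 2479, 2458 and 2448 in Samd7 KO and 2633, 2589 and 2697 in wild type, lower by 1.07-fold with no overlap (limma adjusted p = 0.425). Nrn1, neuritin, had 1574 to 1678 in Samd7 KO and 1688 to 1764 in wild type. Stmn2, a microtubule regulator of growing axons, had 4475 to 4875 in Samd7 KO and 4603 to 4722 in wild type, with a log2 fold change of 0.00 (95% interval -0.15 to 0.16).

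Of the transcription factors of ganglion cells, 0 were called. Pou4f1, Pou4f2 and Pou4f3 encode the BRN3 family, which sets ganglion cell subtypes. Pou4f1 had 725, 607 and 642 normalized reads in Samd7 KO and 631, 749 and 696 in wild type. Pou4f2 had 146, 248 and 156 in Samd7 KO and 186, 192 and 218 in wild type, so that Samd7 KO held both the highest and the lowest libraries. Pou4f3 had 88.0, 106 and 115 in Samd7 KO and 73.6, 84.4 and 84.7 in wild type, separate but not called (log2 fold change 0.34, SE 0.18, limma adjusted p = 0.266). Isl2, a LIM homeobox factor of ganglion cells, had 750, 666 and 706 in Samd7 KO and 704, 624 and 600 in wild type.

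The remaining ganglion genes cover output and light detection. Slc17a6, the vesicular glutamate transporter VGLUT2 of ganglion cell synapses, had 1802, 2330 and 1948 normalized reads in Samd7 KO and 1889, 1813 and 1747 in wild type (log2 fold change 0.15, limma adjusted p = 0.382), with Samd7 KO 2 above the rest. Without that library the log2 fold change of Slc17a6 was 0.0455. Opn4, melanopsin, the pigment of intrinsically light-sensitive ganglion cells (chromosome 14, 34590618 to 34600142), had 502, 590 and 638 in Samd7 KO and 611, 595 and 598 in wild type. The spread of Opn4 was 11.9% of the mean in Samd7 KO and 1.40% in wild type. Per kilobase of merged exons, Nefl led the class at 13156 normalized reads in Samd7 KO and 12558 in wild type, ahead of Sncg at 9352 in Samd7 KO and 10410 in wild type, and Pou4f3 came last at 43.0 in Samd7 KO and 33.7 in wild type.

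Horizontal cell markers all had a positive log2 fold change and 0 of 5 were called. Calb1, the calcium buffer calbindin (chromosome 4, 15881264 to 15908064), had 4780, 5766 and 4971 normalized reads in Samd7 KO and 4302, 4688 and 4375 in wild type. Its groups did not overlap, and the log2 fold change of 0.21 (SE 0.09, 95% interval 0.03 to 0.40) did not pass (limma adjusted p = 0.136). Prox1, a homeobox factor, had 2561, 3476 and 2924 in Samd7 KO and 2792, 2749 and 2657 in wild type. Onecut1 and Onecut2 are factors of the horizontal cell programme. Onecut1 had 71.1, 103 and 83.7 normalized reads in Samd7 KO and 65.9, 70.3 and 76.2 in wild type. Onecut2 had 214, 292 and 213 in Samd7 KO and 244, 190.5 and 219 in wild type. Both overlapped between groups. Gja10, a connexin of horizontal cell gap junctions, had 103, 200.1 and 183 in Samd7 KO and 173, 149 and 136 in wild type.

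Each of the 5 horizontal cell markers was highest in Samd7 KO 2, which was the highest library for 13 of the 34 markers and for 25.7% of all tested genes. Their median deviation from the gene mean was 0.37 in that library on the log2(value + 1) scale, and it lay between -0.12 and 0.05 in the other 5. Leaving out Samd7 KO 2 gave log2 fold changes of 0.13 for Calb1, 0.12 for Onecut1, 0.0021 for Prox1, -0.02 for Onecut2 and -0.15 for Gja10. Of the 4 other horizontal cell genes tested, 0 were highest and 2 were lowest in Samd7 KO 2.

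Samd7 KO 2 also held relatively more reads of long genes than the other libraries. Of genes with over 6 kb of merged exons, 48.7% were highest in Samd7 KO 2, against 10.2% of genes under 1.5 kb. Wild type 2 went the other way, being highest for 7.84% of genes over 6 kb and 35.8% of those under 1.5 kb. The merged exons of the horizontal cell markers measured 16.2 kb for Onecut2, 8.39 kb for Prox1, 4.85 kb for Calb1, 4.11 kb for Onecut1 and 2.16 kb for Gja10. With each library's trend with exon length removed, a correction chosen after seeing the data, Samd7 KO 2 was still highest for all 5. Its deviations from the gene mean were 0.12 to 0.46. For Onecut2 the lead was narrow, at 0.117 in Samd7 KO 2 against 0.1105 in wild type 1. With this correction 0 of the 5 were called. The log2 fold change of Onecut2 was then -0.0030. 

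**Figure D3:**
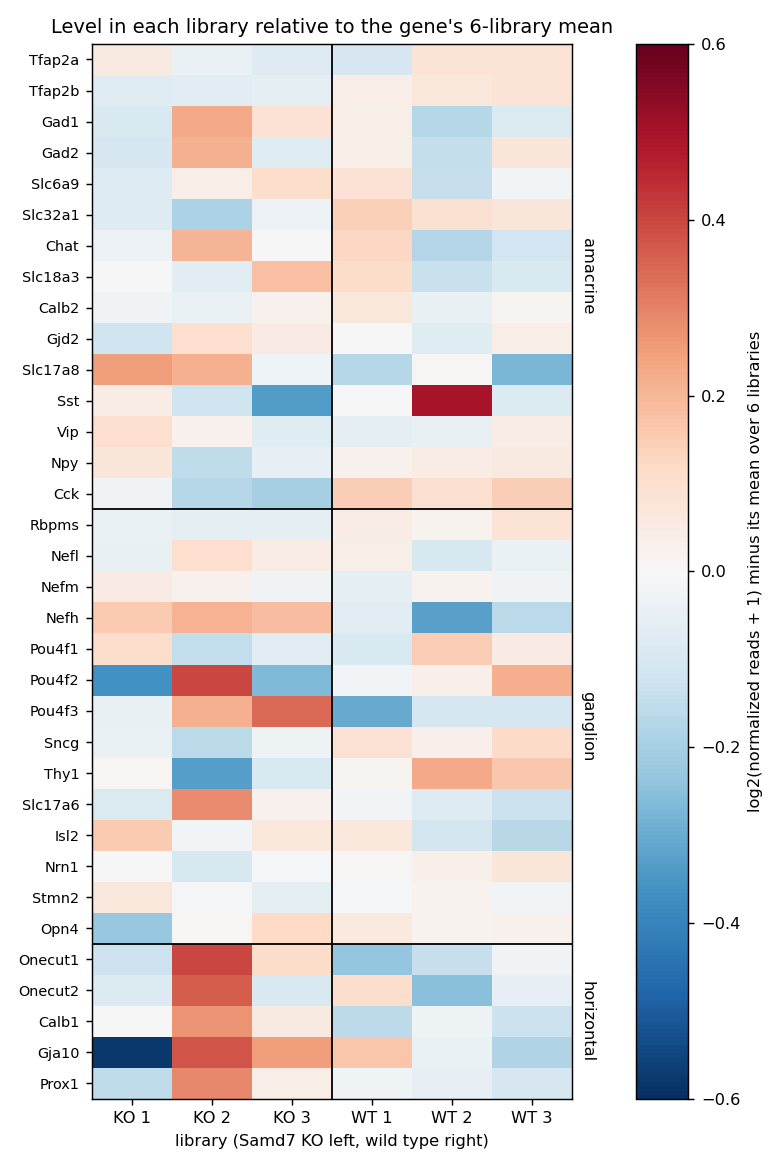
Level of each of the 34 markers in each library (columns, Samd7 KO left, wild type right) as log2(normalized reads + 1) minus the gene's mean over 6 libraries, in colour from -0.6 to 0.6. The 5 horizontal cell markers at the bottom are all highest in Samd7 KO 2, and Sst is highest in wild type 2.

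**Figure D4:**
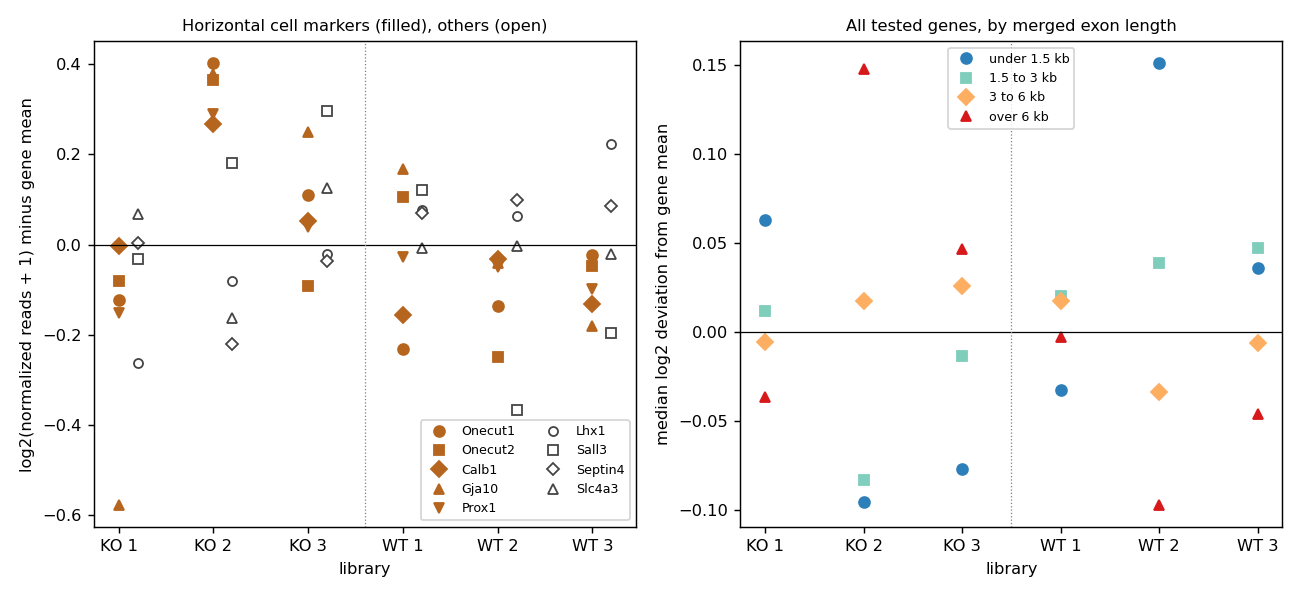
Left, deviation from the gene mean in each library for the 5 horizontal cell markers (filled) and 4 other horizontal cell genes (open), on the log2(normalized reads + 1) scale. Right, median deviation of all tested genes by merged exon length, where genes over 6 kb reach 0.15 in Samd7 KO 2 and -0.10 in wild type 2.

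Other genes of the same classes were listed by their known roles, but with earlier results of these data known. The shares called in this and the further lists therefore describe the lists only. Of 21 other amacrine cell genes tested, 3 were lower, 0 were higher and 18 did not pass, where 5.21% of all tested genes were lower and 6.79% higher. The share called was 14.3%, against 12.0% of all tested genes in either direction. The median log2 fold change of these 21 genes was -0.06. Penk, the precursor of enkephalins, had 3668, 3882 and 2483 normalized reads in Samd7 KO and 6962, 4963 and 6629 in wild type, and fell 1.85-fold (log2 fold change -0.90, SE 0.16, limma adjusted p = 0.00338). Crh, corticotropin-releasing hormone, had 67.7, 58.1 and 57.7 in Samd7 KO and 117, 134 and 109 in wild type, and fell 1.97-fold (log2 fold change -0.96, SE 0.18, limma adjusted p = 0.00471). Th, the enzyme that limits dopamine synthesis, had 462, 357 and 424 in Samd7 KO and 609, 628 and 602 in wild type (log2 fold change -0.57, SE 0.12, limma adjusted p = 0.00894). These 3 genes mark different small populations of amacrine cells, their groups did not overlap, and each call held with any library left out.

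Pax6, the homeobox factor of amacrine and ganglion cells, had 8718 to 9528 normalized reads in Samd7 KO and 9539 to 9753 in wild type. The groups did not overlap, at a difference of 1.05-fold that did not pass (limma adjusted p = 0.528), and Pax6 was picked after its values were seen. Ptf1a, a factor of amacrine precursors, had up to 2.26 normalized reads in Samd7 KO and 3.25 in wild type, and Nts, neurotensin, had 0 in all 6 libraries, so neither was tested.

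Of 18 other ganglion cell genes, 2 were lower and 0 higher, where 5.21% of all tested genes were lower and 6.79% higher. The share called was 11.1%, against 12.0% of all tested genes in either direction. The median log2 fold change of these 18 genes was -0.06. Cartpt, the CART peptide precursor of a direction-selective ganglion cell group, had 11365, 9173 and 10693 normalized reads in Samd7 KO and 12947, 14140 and 13303 in wild type (log2 fold change -0.38, SE 0.08, limma adjusted p = 0.0118). The call ended without wild type 2 (limma adjusted p = 0.0647) and without wild type 3 (limma adjusted p = 0.0540). Tubb3, a neuronal beta-tubulin, had 7374, 7157 and 7752 in Samd7 KO and 9039, 8738 and 8713 in wild type (log2 fold change -0.25, SE 0.07, limma adjusted p = 0.0287). Its call ended with total-read scaling, a replicate block, the length correction and without Samd7 KO 3 or any wild-type library, where the adjusted p was 0.0581 to 0.117. The count of called genes in the list was 0 without wild type 2 or 3, 1 without Samd7 KO 3 or wild type 1 and 4 without Samd7 KO 1.

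Of 4 other horizontal cell genes tested, 0 were called. The smallest adjusted p belonged to Septin4, a cytoskeletal GTPase, with 13276, 11369 and 12914 normalized reads in Samd7 KO and 13901, 14183 and 14064 in wild type (limma adjusted p = 0.153). Next was Sall3, a zinc finger factor of horizontal cells, with 727, 842 and 912 in Samd7 KO and 808, 576 and 649 in wild type (limma adjusted p = 0.193).

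Genes known to respond to injury of ganglion cell axons did not move in 1 direction. Of 10 tested, 2 were higher and 2 lower, beside 12.0% called of all tested genes, with a median log2 fold change of 0.05. Jun, a subunit of the AP-1 factor, had 5541, 5098 and 5514 normalized reads in Samd7 KO and 3972, 3921 and 3859 in wild type, and rose 1.37-fold (log2 fold change 0.46, SE 0.07, limma adjusted p = 0.00117). Atf3, a stress factor induced in injured ganglion cells, had 683, 538 and 664 in Samd7 KO and 907, 933 and 956 in wild type, and fell 1.48-fold (log2 fold change -0.58, SE 0.11, limma adjusted p = 0.00566). The 6 that did not pass were the stress and growth genes Sox11, Gal, Chac1, Klf6, Ddit3 and Hrk, and Sprr1a was too low to be tested. These genes are also expressed outside ganglion cells, including in photoreceptors and glia, and the source of the reads was not tested.

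Gadd45a, a DNA damage response gene, had 3614, 3187 and 2871 in Samd7 KO and 1927, 2880 and 2315 in wild type, with groups that overlapped (limma adjusted p = 0.0473). Its call ended with edgeR, a replicate block, a mean of at least 50 reads and without any library but wild type 2, where the adjusted p was 0.0512 to 0.146. Ecel1, a peptidase of injured neurons, had 16.9, 16.6 and 20.2 in Samd7 KO and 40.2, 83.3 and 31.1 in wild type (log2 fold change -1.35, SE 0.35, limma adjusted p = 0.0280). Without wild type 2 its log2 fold change was -0.95 and the call ended (limma adjusted p = 0.125), as it did without Samd7 KO 2 and Samd7 KO 3, so that 2 genes of the list were called without either of these. The call of Ecel1 also ended with limma-voom (limma-voom adjusted p = 0.05375), and a mean of at least 50 reads left the gene untested.

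**Figure D5:**
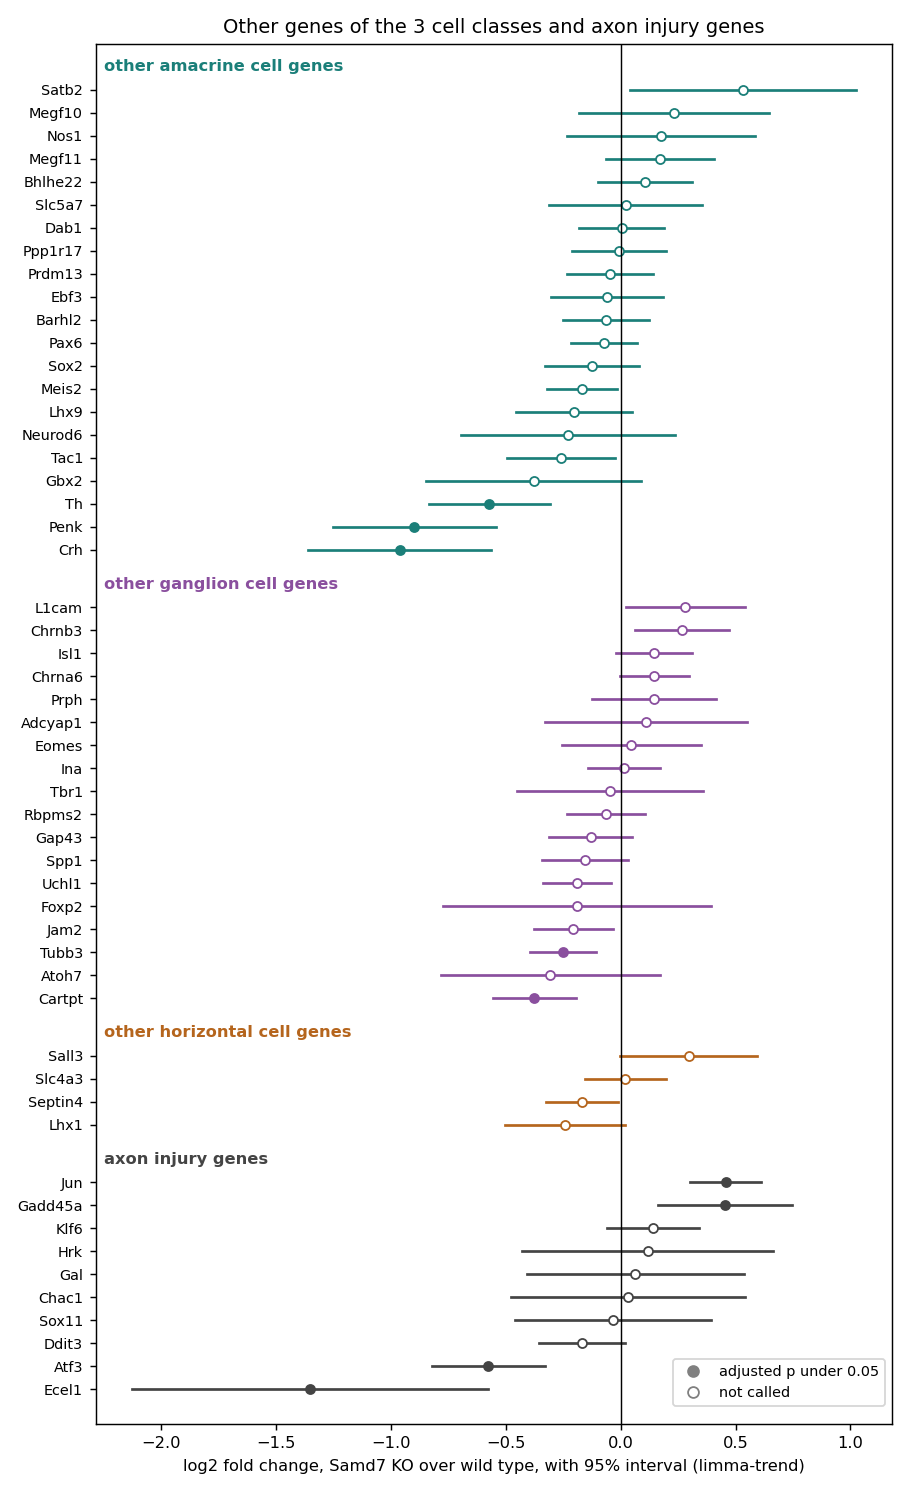
Log2 fold change, Samd7 KO over wild type, with its 95% interval from limma-trend (n = 3 libraries per group) for other genes of the 3 cell classes and for axon injury genes, sorted within each list. Filled points are called genes, with Crh, Penk and Th lowest among amacrine cell genes at -0.96, -0.90 and -0.57.

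Markers of other cells were summed in the same way. Pigment epithelium markers summed to 793 to 1586 normalized reads in Samd7 KO and 2236 to 3553 in wild type and 4 of 6 were lower. Myelin genes of the optic nerve, whose stump can stay on a dissected retina, summed to 2447 to 2748 in Samd7 KO and 2237 to 2496 in wild type, with 0 of 4 tested called and Mobp at 0 to 2.89 in all libraries. Most of that sum came from Cnp, with a log2 fold change of 0.21, while Mbp (-0.41) and Mag (-0.70) lay below wild type with no overlap (limma adjusted p = 0.165 for Cnp, 0.0684 for Mbp and 0.131 for Mag). Of 6 markers of Muller glia, Glul, glutamine synthetase, was lower by 1.44-fold (limma adjusted p = 0.000407) and Slc1a3, a glutamate transporter, was higher by 1.26-fold (limma adjusted p = 0.0196), and the other 4 did not pass. The sums of the Muller glia markers were 131250 to 147024 normalized reads in Samd7 KO and 145089 to 163208 in wild type. Bipolar cell markers, the neighbours of amacrine cells, had 0 of 8 called, with sums of 54258 to 61170 in Samd7 KO and 50241 to 53675 in wild type. Their part in the results above was not tested.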

How the data were processed

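Polyadenylated RNA of 6 retinas, 3 per genotype, was copied to cDNA by a SMARTer Ultra Low kit, then sheared, per the labels' protocols. The submitters' processing notes name the aligner STAR (2.7.3a), the counter HTSeq (0.12.4), SAMtools (1.9), cutadapt (3.0), DRAGEN and DESeq2, and list GRCm38 and mm10 as builds, without their order or settings.

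The authors' deposited table gives a signal per library, the gene read count divided by a size factor. All 166478 values above 0 (100%) were whole reads within 0.01 after division by the worth of 1 read. It also gives the authors' log2 fold change with its standard error, the Wald score, and raw and adjusted p-values of their DESeq2 fit, per the file headers. Score and p-values are given for log2 fold change thresholds of 1 and of 0, and those for 0 are cited here.

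Genes reaching a value of 10 in 3 or more libraries were tested with limma-trend (limma 3.58.1, R 4.3.3) on log2(value + 1), as chosen for this unit. Fold changes are ratios of group means, and log2 fold changes are on that scale, which shrinks those of low genes. All p-values are two-sided and were adjusted over all tested genes. Count tests on the recovered reads (edgeR 4.0.16, DESeq2 1.42.0, limma-voom), other filters, pseudocounts and scalings, the replicate number as a block, and the omission of single libraries were alternatives. The fits were also tested on simulated data. Exon lengths and positions come from GENCODE M21, promoters from RefSeq. Lengths were known for 18216 of 20277 tested genes.

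The members and gene lists were chosen with earlier results of these data known, and 1 listed amacrine cell gene is not reported here. All members are named, with the called genes of each further list, or its 2 smallest adjusted p where none was called. Replicates differed by 6.78 to 33.0 times counting noise (chi-square divided by its degrees of freedom). Whether the retinas are from separate mice is not in the labels, and p-values then reflect only the spread among them. Intervals are 95% intervals from limma.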

Additional observations from a re-analysis of the deposited data

How the results depend on the processing

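Of 646 alternative results for single markers, 19 per marker, 610 kept direction and side of the threshold. In 32, spread over 12 markers, the sign turned, and 0 of these were called. The stricter threshold on the adjusted p was not a new fit and could only end calls. That threshold, the changed filters and the replicate block left the log2 fold changes as they were, so no sign could turn there. The length correction and all alternatives for the other gene lists were added after seeing the data.

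The count of called genes, 2432, was 4650 (22.9%) with limma-voom and sample quality weights, 1189 at an adjusted p under 0.01 and 1313 to 3247 with single libraries left out, the lower counts being 1497 with Samd7 KO 3 left out, 1470 with wild type 2 left out and 1313 with wild type 3 left out. Called markers were 3 with limma-voom (Nefh, Cck and Thy1), of which 1 amacrine and 2 ganglion, and 0 to 2 with single libraries left out, both over all markers and over ganglion markers. Without wild type 2 there were 0 by limma and without Samd7 KO 1 there were 2. The cause was not tested. Horizontal markers had 0 calls in every refit run here. With limma-voom the further lists had 5 amacrine, 7 ganglion and 1 horizontal cell genes called, against 3, 2 and 0. At an adjusted p under 0.01, 0 further ganglion genes and 2 axon injury genes were called, with a replicate block 1 ganglion gene, and with a mean of at least 50 reads 2 axon injury genes.

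With total-read scaling, under which the median log2 fold change of all genes was 0.0586, Tfap2a turned to 0.0146 and Calb2 to 0.0314. With upper-quartile factors Gad2 was -0.0068, Gjd2 -0.0129, Nefm -0.0005 and Stmn2 -0.0313. With limma-voom Gad2 was -0.0597, Vip -0.0282, Stmn2 -0.0176 and Opn4 0.0008. With the length correction Gad2 was -0.0336, Slc6a9 -0.0001, Calb2 0.0432, Npy 0.0050, Nefm -0.0218, Stmn2 -0.0511 and Onecut2 -0.0030. With single libraries left out the log2 fold changes ranged from -0.0751 to 0.0809 for Gad2, -0.0110 to 0.1005 for Slc6a9, -0.0545 to 0.0019 for Calb2, -0.0243 to 0.0855 for Gjd2, -0.0039 to 0.0837 for Vip, -0.0293 to 0.0325 for Stmn2, -0.1433 to 0.0291 for Opn4, -0.0216 to 0.2134 for Onecut2 and -0.1464 to 0.3314 for Gja10.

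Equal replicate numbers did not pair the samples, with correlations of deviations of -0.18, -0.13 and -0.01. With a replicate block 1624 genes were called, and Nefh was still the called marker (limma adjusted p = 0.0343). With 554 reads of Pou4f3 over 6 libraries, low markers could be measured less closely than high ones.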
